A study of Mus musculus with 32 samples.

Results

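Pecam1, Cdh5, Esam, Cldn5, Icam2, Emcn, Ecscr, Robo4, Mmrn2 and Vwf encode proteins of endothelial junctions, of the endothelial surface or of endothelial secretion, and they were chosen by name. They were 10 of the 20145 genes that could be named on the arrays. Each was measured by 1 probe, so no second probe of a gene could be compared. All 10 were well above background on all 32 arrays, and all 10 entered every test.

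Endothelial cells line blood vessels and seal the wall through adherens junctions, built on the cadherin encoded by Cdh5, and tight junctions, in which the claudin encoded by Cldn5 is the main vascular member. Growth factors of the VEGF family act on these cells through receptor tyrosine kinases and loosen the junctions. Sunitinib inhibits VEGF and PDGF receptors and several other receptor tyrosine kinases, and is used as an anti-angiogenic drug.

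RNA was measured on single-colour Agilent arrays from tumours of 4T1-Luc cells, a mouse mammary carcinoma line that carries luciferase, injected into a mammary fat pad of 8-week-old Balb/C females. Every tumour was left to establish for 1 week, and the mice then received 40 mg/kg sunitinib or the vehicle, PBS with DMSO. Tumours of 12 mice were taken at 1300 mm3, digested, and split with magnetic beads carrying an antibody to PECAM-1 into a selected fraction, labelled endothelium (EC), and the remaining tissue, called bulk. The labels divide the sunitinib-treated mice by their response up to day 8 as sensitive or resistant.

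The 1300 mm3 groups were EC of 4 sensitive mice, EC of 4 resistant mice, EC of 4 vehicle mice, bulk of 4 sensitive mice, bulk of 4 resistant mice and bulk of 4 vehicle mice, with both fractions coming from the same animals. Small tumours came from day 9 (2 sunitinib-treated mice and 2 vehicle mice) and from a size of 600 mm3 (2 sunitinib-treated mice and 2 vehicle mice), and their treated mice are all labelled sensitive. The labels give their tumour component as bulk and do not say whether the endothelial cells had been removed. No mouse carried an engineered allele. The digestion mix held actinomycin D, which blocks transcription, and selection on PECAM-1 also retains other cells with that protein, such as platelets and some leukocytes. Each level is a log2 processed signal from which the array's own 75th percentile was subtracted, so 0 is the level of a fairly bright spot and a difference of 1 is a 2-fold difference. Levels of different genes come from different probes and were not compared.

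RefSeq promoter windows (build GRCm38.p6, 250 bases before to 50 after the start) were held for 3 of the 10 genes, and are shown for that reason. A link between these windows and the levels was not tested. Emcn lies at chr3:137340828-137341127, Robo4 at chr9:37401722-37402021 and Cldn5 at chr16:18776597-18776896, all on the plus strand. Capitals mark the core of ETS factor sites, GGAA or its reverse complement TTCC, a family that includes the endothelial regulator ERG.
Emcn: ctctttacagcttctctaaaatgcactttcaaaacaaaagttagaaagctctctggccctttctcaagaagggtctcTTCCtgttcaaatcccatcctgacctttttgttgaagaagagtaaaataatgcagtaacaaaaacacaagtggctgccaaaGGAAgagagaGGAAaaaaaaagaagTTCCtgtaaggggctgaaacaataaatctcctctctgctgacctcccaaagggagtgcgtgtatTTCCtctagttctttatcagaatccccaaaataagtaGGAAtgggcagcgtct
Robo4: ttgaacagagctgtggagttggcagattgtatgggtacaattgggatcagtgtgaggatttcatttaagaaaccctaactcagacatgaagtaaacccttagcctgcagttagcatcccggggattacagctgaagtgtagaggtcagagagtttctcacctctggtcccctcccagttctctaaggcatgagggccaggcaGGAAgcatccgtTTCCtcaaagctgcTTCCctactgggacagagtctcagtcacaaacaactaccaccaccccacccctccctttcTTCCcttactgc
Cldn5: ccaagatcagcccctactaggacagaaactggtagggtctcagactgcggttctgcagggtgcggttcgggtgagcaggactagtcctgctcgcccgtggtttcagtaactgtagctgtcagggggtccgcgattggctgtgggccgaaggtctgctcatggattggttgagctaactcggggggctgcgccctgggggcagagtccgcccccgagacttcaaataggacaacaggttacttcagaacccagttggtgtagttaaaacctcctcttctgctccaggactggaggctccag

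The core stood 6 times in the Emcn window, 4 times in the Robo4 window and 0 times in the Cldn5 window. It occurs in 96% of the 32851 promoter windows of the table, with a median of 3 matches. Of all windows, 46.3% hold at least 4 and 15.7% at least 6. The longer form CAGGAA, which contains the core, was found 2 times in Emcn, 1 time in Robo4 and 0 times in Cldn5, on either strand, and in 30.6% of all windows. ACAAT, a core bound by SOX factors, was found 1 time in Emcn, 2 times in Robo4 and 0 times in Cldn5, and in 31% of all windows. A GC box, GGGCGG, was found 1 time in Cldn5 and in neither other window, and in 35.7% of all windows. AGATAA and TATAAA were in none of the 3 windows and in 11.2% and 13.6% of all windows. The GC content was 41% for Emcn, 50.3% for Robo4 and 58.3% for Cldn5.

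Between 46.1% and 52.9% of probes passed the scanner's test against background in EC of resistant mice, 79.9% to 86.4% in EC of sensitive mice and 80.3% to 82.2% in EC of vehicle mice. In bulk the share was 55.3% to 83.4% over the 3 groups. The arrays lay on 4 slides. Slide 4 held the 8 arrays of resistant mice and no others, so resistance and slide cannot be told apart. In sensitive and vehicle mice the EC arrays shared slide 2 and the bulk arrays slide 3, and the 8 small tumours shared slide 1. On slides 1 to 3 all arrays of sunitinib-treated mice lay in 1 column and all arrays of vehicle mice in the other, so treatment and column cannot be told apart there.

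The bulk array of vehicle mouse 3 stood apart from the other 3 vehicle bulk arrays, and was the highest of its group for all 10 genes. Its mean over the 10 genes was 1.61, against -2.52 to -1.87 in the other 3 vehicle mice. Its mean over 28 other endothelial genes was 0.45, against -2.37 to -1.92 in those mice. The mean of 12 mural markers was 0.87 on that array and -0.25 to 0.14 in the others, while 12 tumour epithelial markers averaged 3.93 on it and 3.62 to 4.00 in the others. Medians of the 10 genes, their calls and treatment effects that rest on this array are given with and without its mouse. The mean differences over 12 mice, the order of the groups and the values of other gene lists include it. Over 12 mice the median difference of the 10 between EC and bulk was 4.88 with this mouse and 5.23 without it. The bulk array of resistant mouse 2 had a raised floor, with 83.4% of probes well above background, against 55.3% to 58.7% in the other 3 resistant mice. The lowest level well above background was -3.05 on it, against -5.78 to -5.47 in those mice.

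All 10 genes were far higher in EC than in bulk of the same tumours. The largest mean differences over 12 mice were those of Robo4, a guidance receptor of the vascular wall, at 6.24 (SE 0.45, 75.4-fold), Mmrn2, a matrix protein secreted by endothelium, at 6.15 (SE 0.45, 70.8-fold), and Cdh5, VE-cadherin, at 6.03 (SE 0.41, 65.5-fold). Between them and the lower end lay Emcn, the sialomucin of venous and capillary endothelium, at 5.19, Esam, an adhesion molecule of tight junctions, at 5.15, Vwf, the clotting glycoprotein stored in Weibel-Palade bodies, at 4.61, and Cldn5 at 4.54. Icam2, a ligand of leukocyte integrins, differed by 3.81 and Ecscr, a small membrane protein of endothelial migration, by 3.37. Pecam1, whose protein was the target of the beads and whose level is therefore not independent of the selection, differed least, by 2.86 (SE 0.24, 7.25-fold). All 10 were called higher by limma (adjusted p from 6.48e-07 to 5.97e-06), where 22.6% of the 18158 genes tested were called higher and the median difference of all genes was -0.06. The fit had the mouse as a block.

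Cdh5 shows the separation of the fractions. Its level in EC was 4.60, 3.99, 4.53 and 3.81 in sensitive mice 2 to 5, 3.94, 3.33, 3.13 and 3.68 in resistant mice 1 to 4, and 3.44, 3.27, 3.45 and 3.44 in vehicle mice 2 to 5. In bulk of the same mice it was -4.30, -4.75, -2.36 and -4.94 in sensitive mice, -0.48, -1.23, -0.67 and -0.77 in resistant mice, and -3.66, 1.44, -2.55 and -3.54 in vehicle mice. No EC array overlapped a bulk array, and the nearest bulk array was that of vehicle mouse 3.

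Within single mice, every gene was higher in EC than in bulk in 12 of 12 mice. Pecam1 had the smallest difference of the 10 genes in 8 mice, Ecscr in 3 and Icam2 in 1. Robo4, Cdh5 and Mmrn2 were each among the 3 largest differences in 10 of 12 mice. These ranks, and the order of the mean differences above, compare genes through 1 probe each. Probes may differ in background, and whether that set the order was not tested. The median over the 10 genes was 5.67 to 7.12 in sensitive mice, 3.29 to 4.20 in resistant mice and 1.30 to 5.91 in vehicle mice. The low end of the vehicle mice was mouse 3, since the other 3 had medians of 5.30, 5.85 and 5.91. Without mouse 3 the median of the fitted differences in vehicle mice was 5.76, against 4.61 with it, and all 10 genes were called in either case. The 2 fractions of resistant mouse 4, paired by their titles, did not deviate together (r = -0.07), and their files carry a number that they share but that differs from the titles. Without this mouse the median in resistant mice was 3.64, against 3.71 with it, and all 10 genes were called in either case.

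**Figure D1:**
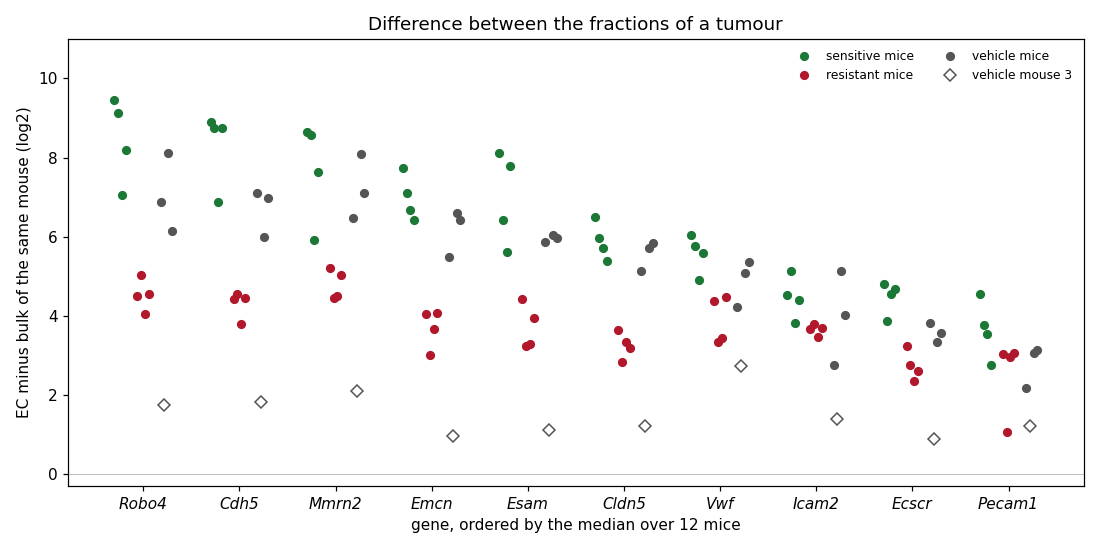
EC minus bulk of the same mouse (y axis, log2) for each gene (x axis, ordered by the median over 12 mice), with 1 point per mouse, green for sensitive, red for resistant and grey for vehicle mice, and an open diamond for vehicle mouse 3. Every point lies above 0, the red points lie low and overlap the green points for Pecam1, and vehicle mouse 3 is the lowest vehicle point for each gene.

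The call was made in each treatment separately. All 10 genes were called higher in EC of sensitive mice (median difference 6.44, where 14.5% of genes were called higher), in EC of resistant mice (3.71, where 13.5% were) and in EC of vehicle mice (4.61, where 11.9% were). The resistant mice are those whose EC and bulk arrays shared a slide. There Mmrn2 differed by 4.80 (SE 0.78, 27.9-fold), Robo4 by 4.53 (SE 0.79, 23.1-fold), Vwf by 3.91 (SE 0.38, 15-fold) and Pecam1 by 2.52 (SE 0.41, 5.75-fold), with adjusted p for the 10 genes from 0.00039 to 0.00423.

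The difference between the fractions was smaller in resistant than in sensitive mice for all 10 genes by their means, where 51.2% of all genes had a smaller difference in resistant mice, but none of these differences was called (limma, 2.58% of genes called). Cdh5 differed between the fractions by 4.31 in resistant and 8.32 in sensitive mice, so that the first minus the second was -4.01 (SE 1.00, adjusted p = 0.0585). Robo4 differed by 4.53 in resistant and 8.46 in sensitive mice (-3.93, SE 1.11, adjusted p = 0.0771), and Esam by 3.72 in resistant and 6.98 in sensitive mice (-3.27, SE 1.02, adjusted p = 0.0996). In this fit 8 of the 10 genes had an unadjusted p under 0.05, against 22% of all genes. With vehicle mouse 3 left out, which changes no value here but lowers the shared estimate of the spread, 8 of the 10 were called. The sizes depended on the processing, whose alternatives are described below. The median over the 10 was -2.77 as scaled here, -2.24 with normexp background correction, -3.26 with quantile scaling and -2.79 in the deposited values. With normexp Cdh5 was at -2.80 and Robo4 at -3.12. In sensitive mice the fractions lay on different slides and in resistant mice on the same slide.

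Genes related to the 10 by function divided in EC against bulk. Of 28 other endothelial genes, 27 were called higher and 0 lower, with a median difference of 3.88, where 22.6% of all genes were called higher and 29.3% lower. The 3 with the smallest p were Apold1, an endothelial immediate-early gene, at 4.23, Ushbp1 at 3.80, and Sox17, an arterial transcription factor, at 6.89. The gene not called was Kdr, the main VEGF receptor, at 0.35 (SE 0.14, adjusted p = 0.0532), named after its value was seen. Of 23 junction partners and scaffolds, 6 were called higher and 9 lower, with a median of -0.20. The leading genes among them were Gja5 at 3.85 and Gja4 at 2.20, connexins of arterial endothelium, and Jam2, an adhesion molecule of endothelial junctions, at 3.64. The catenins of the VE-cadherin complex inside the cell, named after their values were seen, were not called higher in EC. Ctnnb1 differed by -0.11 (adjusted p = 0.397) and Ctnnd1 by 0.06 (adjusted p = 0.731). Ctnna1 fell by 0.45 (adjusted p = 0.0197) and Jup, plakoglobin, fell by 0.93 (adjusted p = 0.000338).

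Of 19 ligands, partners and processing enzymes of the 10 proteins, 8 were called higher in EC and 4 lower, with a median of 0.25. They were led by Angpt2 (3.78) and Selp (2.86), whose products are stored with von Willebrand factor in Weibel-Palade bodies, and by Cd93 (3.76), a receptor for the Mmrn2 protein. Markers of other cells also moved. Of 11 macrophage markers, 11 were called higher in EC (median 2.46), and their mean level was 3.88 to 6.51 over the 12 EC arrays and 1.19 to 3.47 over the 12 bulk arrays. Mural markers were called higher for 11 of 12 (median 0.99), pan-leukocyte markers for 3 of 7, platelet markers for 4 of 10 and lymphatic endothelial markers for 5 of 6. Fibroblast markers were called higher for 1 and lower for 3 of 8, and tumour epithelial markers were called lower for 12 of 12 (median -1.49). The part of these other cells in the differences was not tested.

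**Figure D2:**
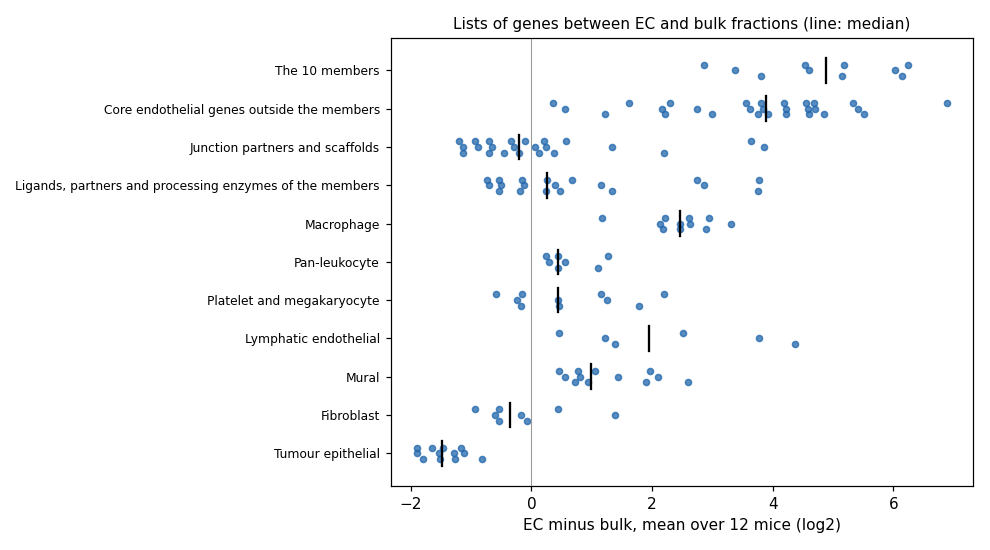
Mean difference between EC and bulk over 12 mice (x axis, log2) for each gene of each list (rows), 1 point per gene and a line at each list's median. The 10 genes lie between 2.86 and 6.24, the junction partners lie on both sides of 0, and all 12 tumour epithelial markers lie below 0.

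Among the EC fractions, the sensitive mice had the highest mean for all 10 genes, and 52.7% of all genes were higher by their means in EC of sensitive than of vehicle mice. Ecscr was 4.29, 3.86, 4.35 and 3.66 in EC of sensitive mice 2 to 5, against 2.73, 2.78, 2.76 and 2.82 in EC of vehicle mice 2 to 5. The groups did not overlap, and the mean differed by 1.27 (SE 0.20, 95% interval 0.82 to 1.71, unadjusted p = 4.63e-05, adjusted p = 0.585). Esam, at 4.57, 4.04, 4.45 and 3.77 in EC of sensitive mice, against 3.01, 2.94, 3.05 and 3.30 in EC of vehicle mice, differed by 1.13 (SE 0.22, adjusted p = 0.686). The vehicle arrays lay close together for both genes.

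None of the 10 genes was called between EC of sensitive and of vehicle mice by limma, and neither was any other gene (0% of 17930). The median difference of the 10 was 0.83, from 0.49 for Cldn5 to 1.27 for Ecscr, against 0.02 for all genes. An unadjusted p under 0.05 was reached by 9 of the 10, where 971 genes (5.42%) reached it, and 6 of the 10 had groups that did not overlap, where 2.87% of genes had groups that did not overlap with sensitive higher. Those 6 were Cdh5, Esam, Icam2, Ecscr, Robo4 and Mmrn2. The sensitive and vehicle EC arrays shared a slide. The 28 other endothelial genes were higher by their means in 28 of 28, with a median of 0.65, and 0 were called. Tumour epithelial markers were lower by their means for 11 of 12 and 0 were called, at a mean level of 0.92 to 3.05 in EC of sensitive and 2.00 to 3.44 in EC of vehicle mice. Mural markers were higher by their means for 12 of 12 (median 0.45), macrophage markers for 9 of 11 (median 0.32) and pan-leukocyte markers for 0 of 7 (median -0.19), again with 0 called. The part of these differences in the values of the 10 genes was not tested.

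In EC of resistant mice all 10 genes were lower than in EC of sensitive mice. Esam was 3.44, 2.82, 2.56 and 2.87 in EC of resistant mice 1 to 4, against 4.57, 4.04, 4.45 and 3.77 in EC of sensitive mice. Its groups did not overlap, and it differed by -1.28 (SE 0.22, adjusted p = 0.00049). Cldn5 was 2.92, 2.52, 2.78 and 2.21 in EC of resistant mice, against 4.25, 3.44, 4.30 and 3.37 in EC of sensitive mice, a difference of -1.23 (SE 0.24, adjusted p = 0.00133) without overlap. Pecam1 was 1.62, 0.68, 1.22 and 1.40 in EC of resistant mice, against 2.78, 2.47, 2.79 and 1.74 in EC of sensitive mice, which differed by -1.22 (SE 0.26, adjusted p = 0.00278) and did not overlap. Sensitive mouse 5 was the nearest to the resistant mice for each of these 3 genes.

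The other 7 genes fell by 0.54 (Icam2, SE 0.18, adjusted p = 0.0264) to 1.02 (Ecscr, SE 0.20, adjusted p = 0.00152). The groups of Ecscr and Vwf did not overlap either, while those of Cdh5, Icam2, Emcn, Robo4 and Mmrn2 did. All 10 genes were called lower, where 28.7% of 17930 genes were called lower, and 5 of the 10 had groups that did not overlap, where 25.3% of genes had groups that did not overlap with resistant lower. The median difference was -0.92, against 0.04 for all genes. The count fell to 5 without sensitive mouse 2, to 5 without resistant mouse 3 and to 6 without sensitive mouse 4, with all 10 differences still below 0.

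Between EC of resistant and of vehicle mice, 1 of the 10 genes was called lower, where 27.1% of genes were. Cldn5 was 2.92, 2.52, 2.78 and 2.21 in EC of resistant mice, against 3.22, 3.57, 3.26 and 3.35 in EC of vehicle mice, and differed by -0.74 (SE 0.24, adjusted p = 0.0245) without overlap. That call was lost without resistant mouse 2, resistant mouse 4 or vehicle mouse 3 (adjusted p from 0.0543 to 0.0687). Pecam1 differed by -0.51 (SE 0.26, 95% interval -1.08 to 0.07, adjusted p = 0.137). The median over the 10 genes was 0.02. Their direction depended on the scaling, with 5 higher and 5 lower by their means as scaled here (51.4% of all genes were higher), 0 higher and 10 lower after quantile scaling, and 1 higher and 9 lower in the authors' deposited values. In the same comparison 8300 of 17930 genes were called in either direction, 4863 of them lower. Mural markers were called lower for 6 of 12 and higher for 1 (median -1.01). Platelet markers were called lower for 4 of 10, and macrophage markers higher for 3 of 11. Of the 28 other endothelial genes 4 were called lower and 1 higher. The part of these markers in the Cldn5 value was not tested.

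**Figure D3:**
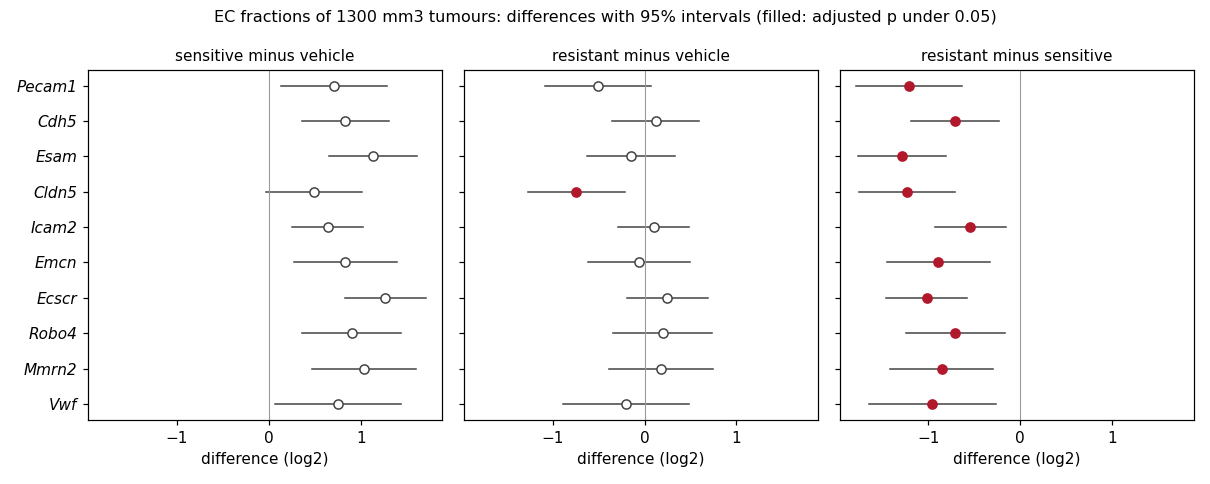
Differences between EC groups of 1300 mm3 tumours (x axes, log2; 4 arrays a group) for each gene (rows), with 95% intervals from limma and filled points where the adjusted p was under 0.05. In the left panel all points lie above 0 and none is filled, in the middle panel only Cldn5 is filled, and in the right panel all 10 lie below 0 and are filled.

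Other endothelial genes fell in EC of resistant against sensitive mice too, 20 of 28 called lower and 0 higher, with a median of -0.84, where 28.7% of all genes were called lower. The leading genes were Bmx, a kinase of arterial endothelium, at -1.83, Fgd5 at -1.52 and Sox7 at -1.75. The junction partners were near that share, with 7 of 22 tested called lower and 1 higher, among them Gja4 at -1.93, Cdh2, the N-cadherin of endothelial contact with pericytes, at -1.90, and Afdn, afadin of the nectin complex, higher at 1.09. The ligands and partners were below it, with 4 of 19 called lower, led by Clec14a (-1.02), a second receptor for Mmrn2, Selp (-1.33) and Adamts13 (-1.61), the protease that cleaves von Willebrand factor.

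Markers of other cells moved in the same comparison, in which 8304 of 17930 genes were called in either direction, 5151 of them lower. Mural markers were called lower for 10 of 12, with a mean level of 0.13 to 1.22 in EC of resistant and 1.33 to 2.27 in EC of sensitive mice. Macrophage markers were higher by their means in 11 of 11 and called for 1, at 4.37 to 6.51 in EC of resistant and 4.64 to 5.43 in EC of sensitive mice. Tumour epithelial markers were higher by their means in 11 of 12 (median 0.51, 0 called) and pan-leukocyte markers in 7 of 7 (median 0.60, 1 called). Platelet markers, which matter for Vwf and Pecam1 because platelets carry both, were called lower for 4 of 10, and 3 to 7 of the 10 were well above background in EC of resistant mice, against 10 in EC of sensitive mice. Their part in the lower values was not tested, nor was that of the smaller share of probes above background in EC of resistant mice.

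Bulk is the tissue left after selection. Fewer endothelial cells in the tumour, more complete removal by the beads and less RNA per cell cannot be told apart there. Robo4 was -4.17, -4.00, -1.45 and -3.79 in bulk of sensitive mice 2 to 5, 0.44, -0.76, 0.06 and -0.26 in bulk of resistant mice 1 to 4, and -2.82, 2.48, -3.82 and -1.90 in bulk of vehicle mice 2 to 5. The resistant mice lay close together, sensitive mouse 4 was the highest of the sensitive mice, and vehicle mouse 3 was above all others. Emcn had the same pattern, at -4.85, -4.38, -3.51 and -4.57 in bulk of sensitive mice, -2.08, -1.47, -1.89 and -2.28 in bulk of resistant mice, and -3.99, 0.70, -4.50 and -4.37 in bulk of vehicle mice.

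None of the 10 genes was called in bulk. Between resistant and sensitive mice, Cdh5 differed by 3.30 (SE 1.01, adjusted p = 0.057), Robo4 by 3.23 (SE 1.16, adjusted p = 0.0958) and Emcn by 2.40 (SE 0.97, adjusted p = 0.133), where 12.2% of 16875 genes were called. The median over the 10 was 1.70, from -0.09 for Pecam1 to 3.30 for Cdh5. Cdh5, Robo4, Emcn, Esam, Cldn5 and Ecscr had groups that did not overlap, 6 of 10, where 7.09% of genes had groups that did not overlap with resistant higher. Without vehicle mouse 3, which enters this comparison only through the spread, 5 were called: Cdh5, Cldn5, Emcn, Esam and Robo4 (adjusted p from 0.00105 to 0.0379). Without resistant mouse 2, Cdh5 alone was called. Of the 28 other endothelial genes, 4 were called lower in bulk of resistant mice and 1 higher, with a median of 0.80, and the 3 with the smallest p were Kdr (-1.56), Bmx (-1.30) and Myct1 (-1.56).

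Against vehicle mice, the bulk values turned on vehicle mouse 3. Between sensitive and vehicle mice the median difference of the 10 was -0.82 with that mouse and 0.06 without it, and 0 genes were called (0% of 16875, with 0 of the 10 and 6.42% of all genes at an unadjusted p under 0.05). Cdh5 differed by -2.01 (SE 1.01) with it and by -0.84 (SE 0.57) without it. Between resistant and vehicle mice the median was 0.68 with mouse 3, and 0 of the 10 were called, where 7.84% of genes were. Without it the median was 1.84 and 5 were called higher, Cdh5 (2.46, adjusted p = 0.0333), Cldn5 (1.64), Ecscr (1.09), Emcn (2.35) and Robo4 (2.72).

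**Figure D4:**
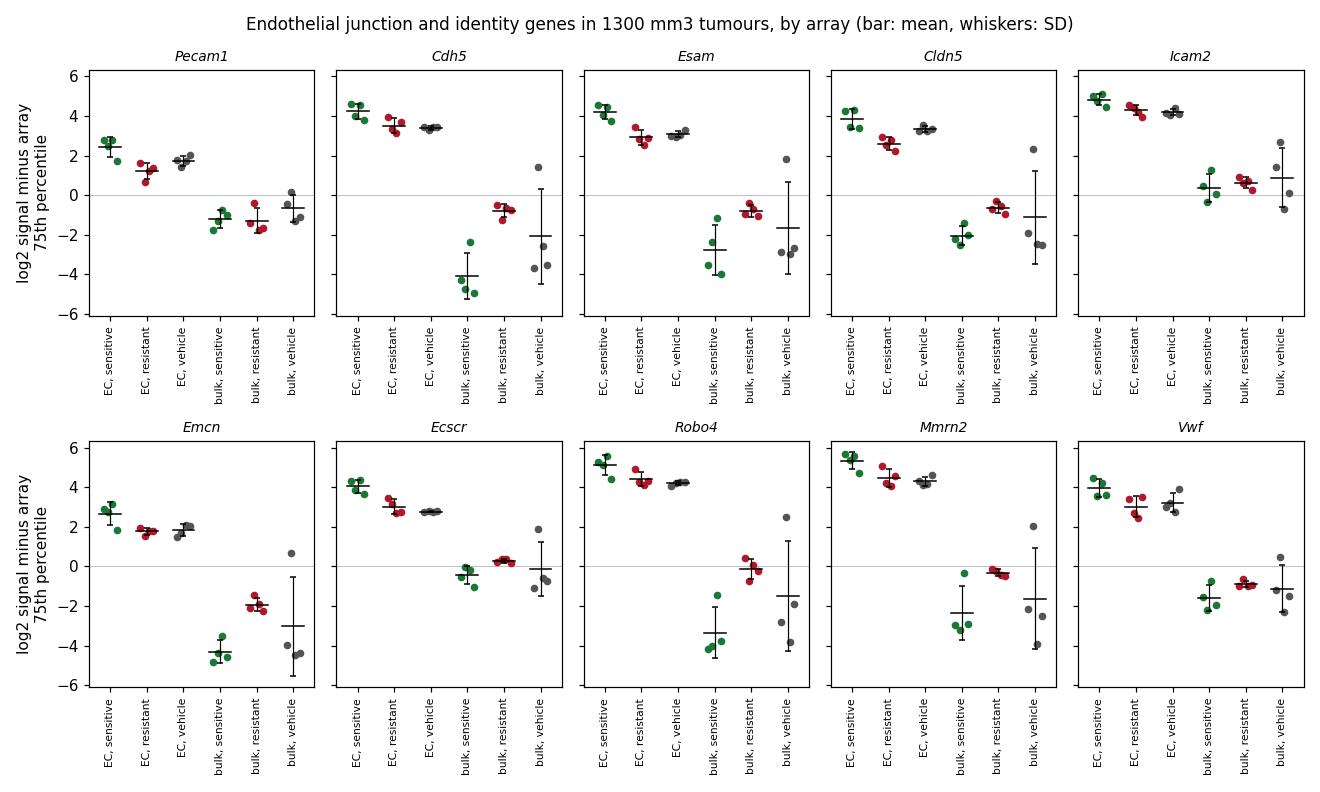
Level of each gene (panels; y axis, log2 signal minus the array's 75th percentile) on the 24 arrays of 1300 mm3 tumours, 1 point per array, with the mean as a bar and the SD as whiskers. EC points lie above bulk points except in the Cldn5 panel, where bulk of vehicle mouse 3 (2.35) lies above EC of resistant mouse 4 (2.21). Bulk of resistant mice is tightly grouped in most panels, and 1 vehicle bulk point, mouse 3, lies far above its group in most panels.

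Whether the effect of treatment differed between the fractions was tested directly. The sensitive effect in EC minus that in bulk was positive for all 10 genes, from 1.14 for Icam2 to 2.84 for Cdh5 (SE 0.998, unadjusted p = 0.0158), or 0.50 and 1.63 without vehicle mouse 3, where 42.2% of genes were positive, and none was called (0% of 18158). Cdh5, Ecscr (1.57), Robo4 (2.74) and Vwf (1.23) had an unadjusted p under 0.05, where 4.82% of genes did. Without vehicle mouse 3 Ecscr was at 0.90, Robo4 at 1.42 and Vwf at 0.69. The median was 1.66, and 0.84 without vehicle mouse 3. The resistant effect in EC minus that in bulk had a median of -1.09 (-2.28 without vehicle mouse 3) and none was called, where 0.27% of genes were. Without vehicle mouse 3 Cldn5 was called, at -2.31 (adjusted p = 0.038) against -1.22 with it (adjusted p = 0.48).

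In small tumours, measured on 1 slide, 4 of the 10 genes were called lower after sunitinib at 600 mm3. This comparison was added after the data were seen. Icam2 was -1.01 and -0.87 in sunitinib-treated mice 3 and 4, against 2.07 and 2.74 in vehicle mice 3 and 4, a difference of -3.34 (SE 0.52, 10.2-fold, adjusted p = 0.0377). Esam was -1.67 and -1.46 in treated mice, against 0.96 and 1.20 in vehicle mice, a difference of -2.64 (SE 0.38, adjusted p = 0.0317). Cdh5 was -1.57 and -0.96 in treated mice, against 0.91 and 1.37 in vehicle mice, a difference of -2.41 (SE 0.29, adjusted p = 0.023). Robo4 was -0.19 and 0.17 in treated mice, against 1.75 and 2.48 in vehicle mice, a difference of -2.13 (SE 0.35, adjusted p = 0.0412).

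Those 4 genes were called lower, where 1.14% of 17427 genes were called lower. Cldn5 (-2.89, adjusted p = 0.179), Emcn (-2.68), Mmrn2 (-1.44) and Pecam1 (-0.89) had groups that did not overlap but were not called, so that 8 of 10 did not overlap, where 23% of genes had groups that did not overlap with sunitinib lower. The fit shares its spread with day 9, where treated mice had an SD of 2.08 for Cldn5 and 1.58 for Emcn. The missing calls therefore do not show that Cldn5 and Emcn changed less than the called genes. Vwf and Ecscr overlapped. Vwf was 1.06 and 0.59 in treated mice, against 0.82 and 0.10 in vehicle mice (difference 0.37, SE 0.43, 95% interval -0.64 to 1.38). Ecscr was 0.54 and 1.91 in treated mice, against 1.30 and 2.24 in vehicle mice (difference -0.54, SE 0.62). With 2 arrays a group, none of the 4 calls held when any of the 4 arrays at 600 mm3 was left out.

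At day 9 the 10 genes were lower by their means (50.8% of all genes were) but none was called (0% of genes, with 1 of the 10 and 7.96% of all genes at an unadjusted p under 0.05). Cdh5 was 0.28 and 0.61 in treated mice 1 and 2, against 1.52 and 1.35 in vehicle mice 1 and 2, a difference of -0.99 (SE 0.29, unadjusted p = 0.012, adjusted p = 0.607). Robo4 was 1.08 and 1.83 in treated mice, against 1.98 and 1.85 in vehicle mice (difference -0.46, SE 0.35). Cdh5, Robo4 and Vwf did not overlap, 3 of 10, where 16.1% of genes had groups that did not overlap with sunitinib lower. Treated mouse 1 was lower than treated mouse 2 for all 10 genes, with a mean over them of -0.02 against 1.19, and the gap was widest for Cldn5, at -1.34 in mouse 1 and 1.61 in mouse 2.

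**Figure D5:**
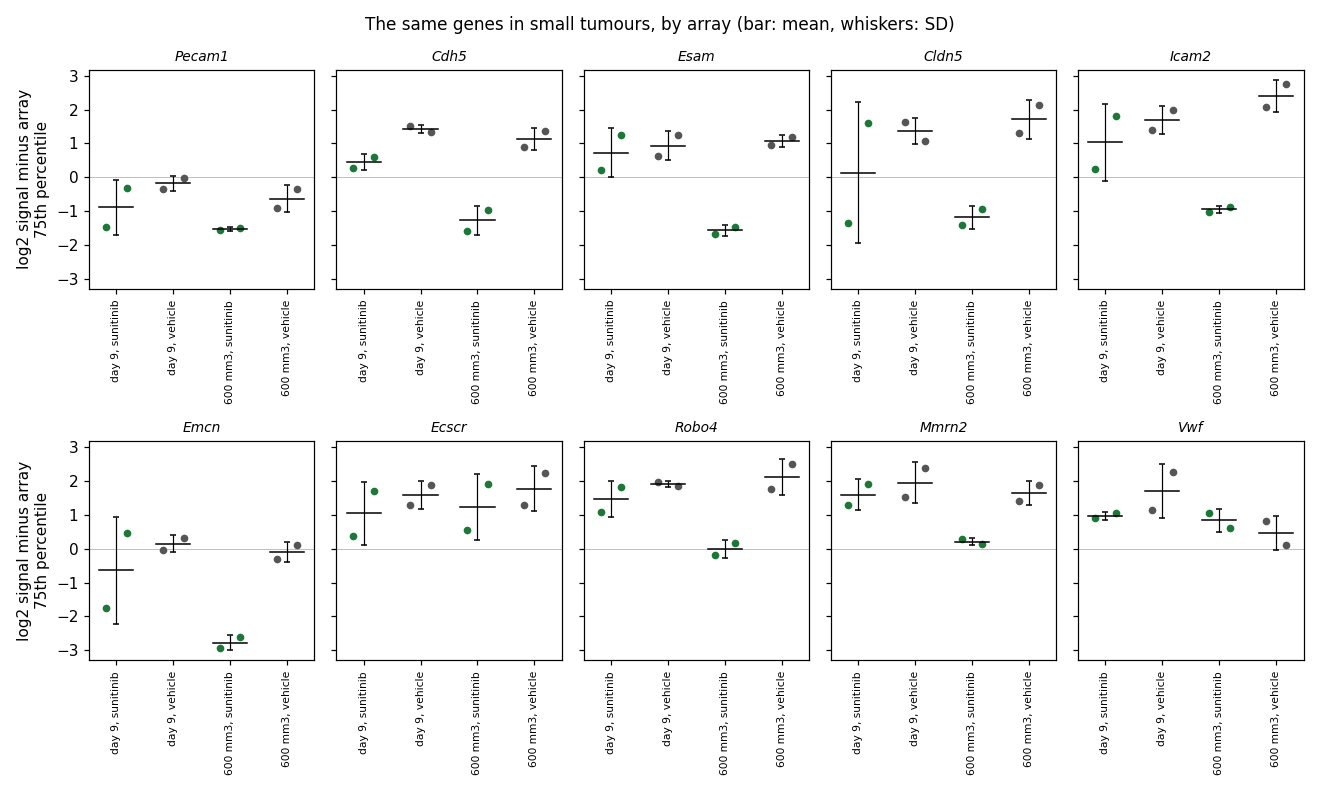
Level of each gene (panels; y axis, log2 signal minus the array's 75th percentile) in small tumours of 2 mice a group, with the mean as a bar and the SD as whiskers. At 600 mm3 both treated points lie below both vehicle points in 8 panels, and in the Vwf and Ecscr panels they overlap.

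Averaged over day 9 and 600 mm3, sunitinib-treated tumours were lower for all 10 genes by their means (median -1.36, against 0.04 for all genes, of which 42.4% were lower) and none was called (0% of genes, with 8 of the 10 and 10% of all genes at an unadjusted p under 0.05). Cdh5 came nearest (-1.70, SE 0.21, adjusted p = 0.0892), and Cldn5 had the widest mean difference (-2.06, SE 0.61, adjusted p = 0.285). Without the day 9 treated mouse 2, 5 genes were called, Cdh5 and Cldn5 among them. The effect at 600 mm3 minus that at day 9 was -2.68 for Icam2 (SE 0.74, adjusted p = 0.202), -2.44 for Esam (SE 0.53, adjusted p = 0.147), -1.67 for Robo4 and -1.42 for Cdh5, and none of the 10 was called, where 0.166% of genes were. From day 9 to 600 mm3, averaged over treatments, Cdh5 was lower by its mean, with a difference of -1.002 (SE 0.21, adjusted p = 0.0477), and was the only one of the 10 called, where 2.74% of genes were called lower. The call of Cdh5 was lost when any 1 of the 8 arrays was left out. Between the same stages mural markers were called lower for 6 of 12 (median -1.26) and junction partners for 3 of 23, while lymphatic endothelial and fibroblast markers had medians of -2.41 and -1.47 with 0 called. Their part in the Cdh5 value was not tested.

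Of the 28 other endothelial genes, 3 were called lower at 600 mm3, where 1.14% of all genes were, namely Sox7 (-3.09), Egfl7, a secreted endothelial matrix protein (-2.02), and Tal1, an endothelial and blood transcription factor (-1.87). The median of the 28 was -1.61, and the count called ran from 0 to 13 under the alternatives, with 0 when any array at 600 mm3 was left out and 13 without either day 9 treated mouse. None of 23 junction partners and none of 19 ligands and partners was called, and their medians were 0.11 and -0.43. Mural markers were called lower for 3 of 12 and higher for 1, at a mean level of -1.52 and -1.32 in treated mice, against 0.04 and 0.08 in vehicle mice. Macrophage markers were called lower for 3 of 11, at 2.08 and 2.89 in treated mice, against 4.09 and 4.13 in vehicle mice. Pan-leukocyte markers were called lower for 1 of 7 (median -1.15). With 0 called, the medians were -1.35 for fibroblast, -0.93 for lymphatic endothelial, -0.35 for tumour epithelial and 0.04 for platelet markers. Their part in the lower values of the 10 genes was not tested.

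Over all 10 groups, EC of sensitive mice had the highest mean for 10 of 10 genes, and EC of resistant and EC of vehicle mice came next, each being second for 5 genes. The vehicle tumours at day 9 or 600 mm3 came after the EC groups for all 10, above every bulk group. Bulk of sensitive mice came last for 8 genes, and the treated 600 mm3 tumours came last for Pecam1 and Icam2. The lowest EC group by its mean did not overlap the next group in the order for any of the 10 genes. For Cldn5 it did overlap bulk of vehicle mice, which came later in the order. There vehicle mouse 3 was at 2.35 in bulk and resistant mouse 4 at 2.21 in EC. The 2 highest groups overlapped for all but Ecscr and Esam, and bulk of vehicle mice overlapped its lower neighbour in the order for all 10.

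The genes whose levels ran closest to the mean of the 10 were Ramp2 (Pearson r = 0.991), a partner of the adrenomedullin receptor, Plvap (0.990), the diaphragm protein of fenestrae and caveolae, Thsd1 (0.990), Cdh13 (0.988) and Rasip1 (0.988), a regulator of vessel lumen formation. That ranking was over 32 arrays and 18271 genes, and it is dominated by the gap between EC and bulk, which all these genes share. Over the 20 arrays of bulk and small tumours they were Adgrl4 (0.979), Ramp2 (0.979), Sox18 (0.976), Rasip1 (0.973) and Cdh13 (0.969), so that Ramp2, Rasip1 and Cdh13 stood among the first 5 in both.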

How the data were processed

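Each of the 32 samples was hybridised to 1 single-colour Agilent mouse array of 59305 spots. The deposited intensity of each spot, per the file headers, is the processed signal of Agilent Feature Extraction 10.7.3.1, which was background-subtracted and detrended within the array and not scaled between arrays. The submitters' processing notes name version 9.1. The authors' deposited value table also holds linear intensity, normalised in R by a method not given in the sources used here. Its column medians lay between 120 and 125, and its log2 values correlated with the log2 scanner values at r = 0.966 to 0.991. The deposited flags for control, outlier, saturated and well-above-background spots, per the file headers, were used as filters.

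From these values, log2 of the intensity deposited by the authors was taken, and each array's 75th percentile over non-control spots was subtracted. Control spots and outlier flags were left out, and spots of a probe were averaged. Of 55681 probes, 26582 were named through their RefSeq accession, giving 20145 genes, each represented by its brightest probe. A gene was tested where that probe was well above background on at least 4 arrays (2 for small tumours). The fits used limma 3.58.1 in R 4.3.3, with Benjamini-Hochberg adjustment over all genes tested and a threshold of 0.05. The fit of both fractions had 24 arrays with the mouse as a block, because both fractions came from the same animal, and deviations of the 2 fractions correlated above 0.1 in 11 of 12 mice (not in resistant mouse 4, at -0.07). EC, bulk and small tumours were also fitted alone, with no block, all groups of a fit sharing 1 spread.

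Alternatives were quantile scaling, normexp background correction with an offset of 50 (on median signals, since the files used hold no mean signal), the authors' deposited values, other filters on dim probes, the mean of all probes, the replicate block and each mouse left out. The percentile over averaged probes, 3 of the 18 comparisons and the settings for the other gene lists were added after the data were seen. The genes, the other gene lists and the tests were chosen with earlier results of these data known. Other genes are named by a rule, up to 3 of a list with the smallest p among those called, except where said. The number of mice limits the precision. In simulated data built on these arrays, limma recovered 76% of genes changed by 1.5 log2 units and 95% of those changed by 3 between EC and bulk (18158 genes). Between EC of resistant and of vehicle mice (17930 genes) it recovered 70% and 95%, and between bulk of resistant and of vehicle mice (16875 genes) 63% and 72%. Between treated and vehicle small tumours averaged over day 9 and 600 mm3 (17427 genes) it recovered 64% and 86%. Each simulation changed 100 genes by each size, with independent noise. In the data far more genes were called, 9430 of 18158 between EC and bulk, so these rates do not carry over directly. The comparison at 600 mm3 alone was not simulated. Promoters were taken from RefSeq for GRCm38.p6, and 3 of the 10 genes matched once windows on chromosome 18, where Ecscr lies, were left out. Python 3.11.15, pandas 2.3.3 and matplotlib 3.10.9 were used.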

Additional observations from a re-analysis of the deposited data

Results flagged for a closer look

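In groups of 4 arrays, a value was looked at again where the gap between the outermost array and its neighbour took up more of the group's range than Dixon's 95% critical value allows, which chance gives in about 1 in 20 groups. In bulk of vehicle mice, mouse 3 was the outermost, highest array for Esam (gap 0.933 of the range), Cldn5 (0.877) and Emcn (0.902). In bulk of sensitive mice, mouse 4 was the highest for Robo4 (0.859) and Mmrn2 (0.896). In EC of vehicle mice, mouse 3 was the lowest for Cdh5 (0.960), where the other 3 mice lay between 3.44 and 3.45. In bulk of resistant mice, mouse 2 was the highest for Vwf (0.891), and that array has the raised floor. Both lists of dim genes were higher on it, lymphatic endothelial markers at -2.17, against -5.48 to -4.99 in the other 3, and platelet markers at -1.61, against -4.35 to -3.99. The cause was not tested for any of these.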

How the results depend on the processing

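Of 342 counts of the 10 genes called under an alternative, 310 stayed within 1.5 times the count reported. The 310 include counts that stayed at 0 and counts that stayed at 10, so they say little about the counts in between. All 10 genes stayed called between EC and bulk, pooled and in each treatment, under every alternative run. Leaving out 1 mouse at a time gave 5 to 10 called between EC of resistant and sensitive mice, 0 to 1 between EC of resistant and vehicle mice, 0 to 5 in bulk of resistant against vehicle mice, 0 to 5 in bulk of resistant against sensitive mice, 0 to 1 for the resistant effect in EC minus bulk and 0 to 8 for the fraction difference in resistant minus sensitive mice. In small tumours it gave 0 to 5 for sunitinib over both stages, 0 to 6 for sunitinib at 600 mm3 and 0 to 2 for 600 mm3 against day 9. A lone array left in a group was assumed to vary like the others. Ecscr at 600 mm3 turned to 0.14 without treated mouse 3 (-1.23 without treated mouse 4), the only value of a single gene in the text whose direction reversed.

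With the authors' deposited values 2 genes were called between EC of resistant and vehicle mice. With probes well above background on every array, 1 was called in bulk of resistant against sensitive mice and 2 for the fraction difference in resistant minus sensitive mice, where normexp gave 3 and no replicate block gave 1. With no filter on dim probes 2 were called at 600 mm3 and 0 for 600 mm3 against day 9. The replicate block gave 0 for 600 mm3 against day 9, and 9 between EC of resistant and sensitive mice. The numbers of mice in different treatments share no animal, and same-numbered arrays correlated above 0.1 in 5 of 10 pairs in EC, 4 of 10 in bulk and 2 of 4 in small tumours. The cause of these shifts was not tested.

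Counts over all genes also moved. The filter on every array gave 4468 calls, against 8300, for EC of resistant against vehicle mice, and 4366, against 8304, for EC of resistant against sensitive mice. In bulk the calls for resistant against vehicle mice were 2271 with quantile scaling, 2314 with deposited values and 416 with the replicate block, against 1323, and for resistant against sensitive mice 3121 with deposited values and 791 with the block, against 2060. With no dim filter 171 were called at 600 mm3, against 287, and 493 for 600 mm3 against day 9, against 755 (1 with the block). Of the genes called between EC of resistant and vehicle mice 41.4% were higher, but 77.2% with normexp and 51.6% with deposited values, and between EC of resistant and sensitive mice 38.0%, but 72.6% with normexp, which moved the median of all genes by 0.28.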
